A study of Schmidtea mediterranea with 40 samples.

Results

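The genes described here are the histones of the planarian *Schmidtea mediterranea* and the proteins that deposit, modify, read and move them. They were chosen by name: a contig of the dd_Smed_v6 transcriptome was taken when the description of its best human match held the word histone, chromodomain, bromodomain, SWI/SNF, chromobox, polycomb or lysine (K)-specific, and when its reads summed to at least 400 over the 40 libraries. That rule kept 102 of 28742 contigs, out of 121 that matched by name, and 19 matches fell under the read minimum. No measured difference between groups entered the rule. The members just above the minimum were histone matches dd_12365, dd_8630 and dd_6148 with 403, 494 and 529 reads, and the matches just below it were dd_13086, dd_50965 and dd_26924 with 276, 232 and 194 reads. By role the members were 18 core and linker histones, 3 histone chaperones and binding proteins, 7 histone deacetylases, 1 histone acetyltransferase, 17 histone demethylases, 11 histone methyltransferases, 8 chromodomain proteins, 12 bromodomain proteins, 14 SWI/SNF-related proteins, 9 chromobox and polycomb proteins and 2 others. The 2 others were dd_1928, whose human match NHP2L1 is described as non-histone, and the transcription factor match HINFP (dd_12249). Symbols given here are those of the human match, several contigs can share one, and 48 members also had a planarian name in the table. The names could differ: dd_12815, matched to human CHD6, carried a planarian CHD4 name, and dd_7813, matched to the methyltransferase EHMT2, carried the name of a TRP cation channel.

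Eukaryotic DNA is wound around octamers of the core histones H2A, H2B, H3 and H4, and linker histone H1 binds between them. Acetyl and methyl groups on the histone tails are added and removed by dedicated enzymes, bound by bromodomain and chromodomain proteins, and accompanied by complexes that slide or evict nucleosomes, such as SWI/SNF. Polycomb complexes keep genes silent through methylation of histone H3 and ubiquitylation of H2A. In planarians, neoblasts, the dividing stem cells, supply the cells that replace lost tissue, and several chromatin regulators are known to be needed for their maintenance or differentiation.

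The samples were post-pharyngeal fragments of the CIW4 strain, with 5 wounds pooled in each library and 40 libraries in 12 groups. Animals ate double-stranded RNA 4 times over 14 days and were cut 7 days after the last meal; the RNA matched either *activin-2*, which encodes a TGF-β family ligand, or *unc-22*, a *Caenorhabditis elegans* gene used as the control. For each RNAi there were 3 libraries labelled 0 hours post amputation (hpa), whose wound orientation is given as NA, 3 each of posterior-facing wounds labelled 6, 24 and 48 hpa, and 4 each of anterior-facing and posterior-facing wounds at 18 hpa. The labels do not say whether the libraries of a group came from separate cultures, so p-values measure the spread between these libraries only, and in bulk tissue fewer cells of a type and less RNA per cell cannot be told apart.

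Libraries held 2524235 to 13381025 counted reads (median 10533396), so that 1 read was worth 0.0747 to 0.396 reads in 1000000 (RPM). The shallowest was replicate 3 of *activin-2* RNAi at 48 hpa. The contig of *activin-2* itself read 2.25 to 5.55 RPM under *activin-2* RNAi at 0, 6, 24 and 48 hpa, against 30.3 to 54.0 RPM in their controls. At 18 hpa the libraries labelled *activin-2* RNAi read 25.8 to 85.8 RPM at anterior-facing wounds, against 27.1 to 31.9 RPM in controls, and 3.63 to 70.1 RPM at posterior-facing wounds, against 33.4 to 44.3 RPM in controls. Target reads therefore did not separate the RNAi groups at 18 hpa, and those groups are called by their labels. A list of 4 pharynx contigs also varied: its summed level was 54.2 to 177 RPM in the posterior-facing libraries labelled *activin-2* RNAi at 18 hpa, against 0.696 to 1.82 RPM in controls, and 3.86, 122 and 6.34 RPM in *activin-2* RNAi libraries at 48 hpa, against 0.647 to 1.54 RPM in controls. Extra pharynges are a known outcome of inhibiting *activin-2* in planarians. None of the 4 contigs was at 0 in every library of a group.

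Together the 102 members took 0.624% to 0.864% of the reads of a library. Their share was higher in every *activin-2* RNAi library than in every control library at 4 of the 6 matched points. At 0 hpa it was 0.740% to 0.767% in *activin-2* RNAi libraries and 0.695% to 0.735% in controls, and at 18 hpa posterior-facing wounds it was 0.769% to 0.797% in libraries labelled *activin-2* RNAi and 0.725% to 0.759% in controls. At 24 hpa it was 0.729% to 0.751% in *activin-2* RNAi libraries and 0.644% to 0.649% in controls, and at 48 hpa 0.724% to 0.790% in *activin-2* RNAi libraries and 0.624% to 0.654% in controls. The groups overlapped at 6 hpa, with 0.815% to 0.842% in *activin-2* RNAi libraries and 0.786% to 0.833% in controls, and at 18 hpa anterior-facing wounds, with 0.822% to 0.864% in libraries labelled *activin-2* RNAi and 0.797% to 0.824% in controls. Shares are descriptions and were not tested. The sums by role, drawn per library, followed the same order at 24 and 48 hpa for histones, demethylases, SWI/SNF-related members and deacetylases. At 48 hpa the core and linker histones summed to 1250 to 1369 RPM in *activin-2* RNAi libraries, against 965 to 1105 RPM in controls. The demethylases summed to 1288 to 1387 RPM in *activin-2* RNAi libraries, against 1158 to 1187 RPM in controls, and the SWI/SNF-related members to 995 to 1081 RPM in *activin-2* RNAi libraries, against 849 to 907 RPM in controls. This order was not particular to the members. The neoblast gene *smedwi-1* read 916 to 944 RPM in *activin-2* RNAi libraries at 0 hpa, against 721 to 820 RPM in controls. At 24 hpa it read 704 to 734 RPM under *activin-2* RNAi, against 555 to 602 RPM in controls. At 18 hpa posterior-facing wounds it read 876 to 925 RPM in libraries labelled *activin-2* RNAi, against 741 to 836 RPM in controls. The test described below called *smedwi-1* at none of these points. Summed neoblast-annotated contigs overlapped between the groups at 0, 24 and 48 hpa and at 18 hpa posterior-facing wounds.

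**Figure D1:**
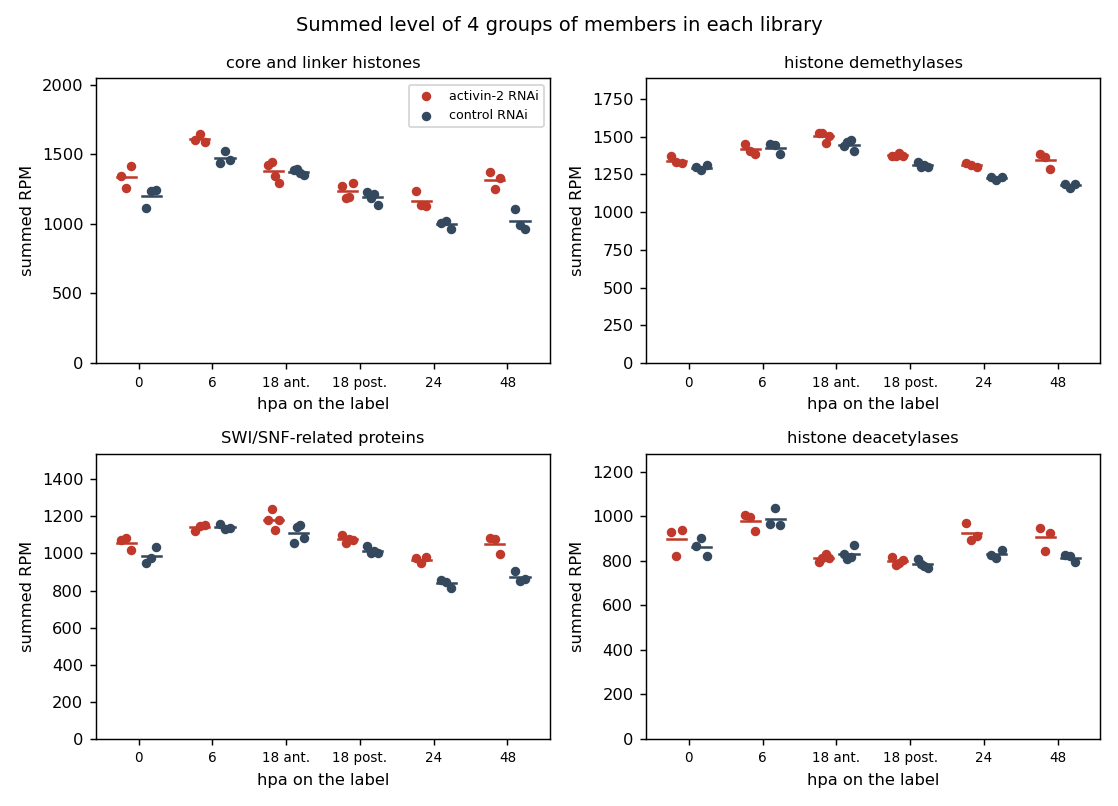
Summed level of histones, demethylases, SWI/SNF-related members and deacetylases (RPM, linear axis starting at 0) in every library, by labelled time and wound, with *activin-2* RNAi left of control RNAi; each point is 1 library and bars are group means. Histone sums at 48 hpa were 1250 to 1369 RPM in *activin-2* RNAi libraries, against 965 to 1105 RPM in controls.

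Single members were mostly steady across the series. Over the 12 group means, the ratio of a member's highest to its lowest level had a median of 1.54, was under 1.5 for 46 members and over 2 for 22. The widest was dd_12815, whose group means ran over a 16.9-fold range, between 4.16 RPM in controls at 48 hpa and 70.3 RPM at 18 hpa anterior-facing wounds of libraries labelled *activin-2* RNAi. Next were the H2B match dd_4808 (7.01-fold) and dd_14490 (5.33-fold), a match to KDM8, a JmjC-domain protein. These ratios are descriptions that include the 18 hpa groups. In those groups time cannot be told apart from whatever set their *activin-2* reads apart. Of all members 51 passed the test in none of the 17 comparisons made, and 51 passed in at least 1; dd_4808 passed in 7, dd_12815 in 6 and dd_14490 in 5. The matching share of all contigs is not given, so these counts do not set the members apart from other contigs.

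Each *activin-2* RNAi group was then set against its control at the same time and wound. Levels were compared by the quasi-likelihood test of edgeR, p-values were adjusted after Benjamini and Hochberg across every contig tested, and a member is called higher or lower where the adjusted p is under 0.05. Most members stood close to their controls, and 14 members were called in at least 1 of the 6 comparisons. For that count too the share of all contigs is not given. Backgrounds follow for each comparison and cover the edgeR calls. For counts by unadjusted p or by DESeq2, here and below, no share of all contigs is given. At 0 hpa 0 of 101 members tested were higher and 1 was lower, against 4.22% of all contigs called; 16 higher and 5 lower had an unadjusted p under 0.05, and DESeq2 called 0 higher and 1 lower. At 6 hpa none of 102 was called, against a background of 2%; 14 higher and 5 lower had an unadjusted p under 0.05, and DESeq2 called 3 higher and 2 lower. At 18 hpa anterior-facing wounds none of 101 was called, against 2.6% of all contigs; 6 higher and 3 lower had an unadjusted p under 0.05, and DESeq2 called 0. Posterior-facing wounds at 18 hpa had 7 of 100 members higher and 1 lower, against backgrounds of 3.15% higher and 5.78% lower. At 24 hpa 7 of 101 were higher and 1 was lower, against 4.51% and 7.96%. At 48 hpa 1 of 101 was higher and none lower, against 2.33% of all contigs called.

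**Figure D2:**
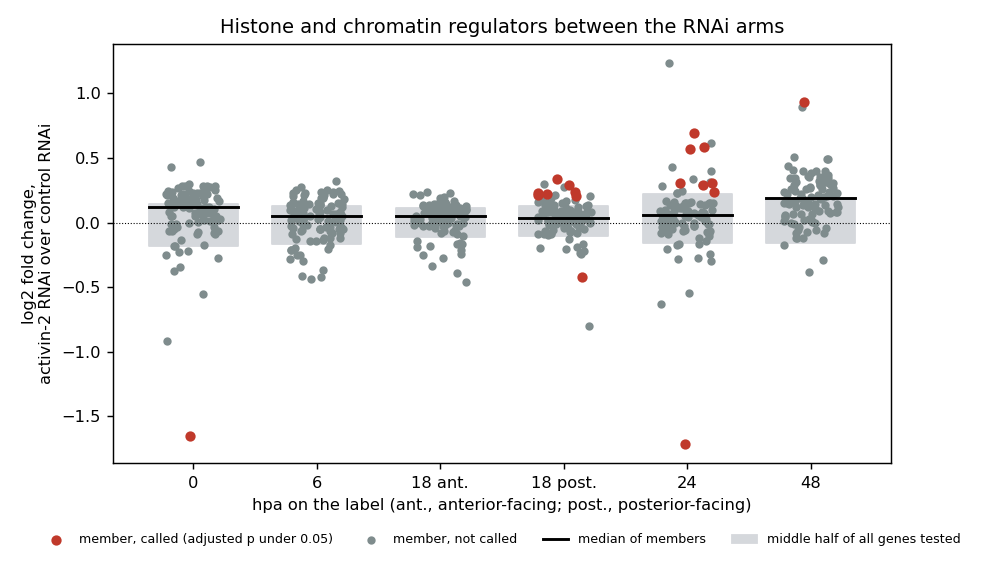
Log2 fold change of every member tested, *activin-2* RNAi over control RNAi, in each of the 6 comparisons; each point is 1 member, filled where called, the black line is the median of the members and the grey band the interquartile range of all contigs tested. The members' median was 0.19 at 48 hpa, where 86 of 101 members were above 0, against a median of 0.02 over all contigs.

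The chromodomain helicase match dd_12815 gave the largest change at 0 hpa. CHD helicases move nucleosomes with the energy of ATP. It read 6.34, 5.18 and 4.59 RPM in *activin-2* RNAi libraries at 0 hpa, against 18.4, 12.4 and 21.6 RPM in controls. All the *activin-2* RNAi libraries were below all the controls (log2 fold change -1.65, SE 0.18, edgeR adjusted p = 0.000151). At 6 hpa the values overlapped, with 16.1, 3.45 and 5.01 RPM in *activin-2* RNAi libraries and 19.1, 10.5 and 4.12 RPM in controls. At 18 hpa all 16 libraries were high: posterior-facing wounds read 68.2, 71.6, 68.8 and 59.7 RPM in libraries labelled *activin-2* RNAi, against 61.1, 50.4, 52.9 and 57.3 RPM in controls, and the groups overlapped (log2 fold change 0.23, SE 0.065, edgeR adjusted p = 0.0396). Anterior-facing wounds read 74.6, 60.1, 66.8 and 79.7 RPM in libraries labelled *activin-2* RNAi, against 65.8, 61.1, 56.4 and 54.1 RPM in controls. At 24 hpa the order of the groups was the opposite of that at 0 hpa: *activin-2* RNAi libraries read 18.4, 24.5 and 22.5 RPM, against 4.45, 2.48 and 17.4 RPM in controls, a difference that was not called, with 1 control library near the RNAi group (log2 fold change 1.24, SE 0.43, edgeR adjusted p = 0.0847). At 48 hpa the values were 6.76, 9.95 and 7.13 RPM in *activin-2* RNAi libraries, against 3.54, 2.77 and 6.17 RPM in controls, without overlap and not called (log2 fold change 0.89, SE 0.27, edgeR adjusted p = 0.115). The change of the RNAi difference between times was itself tested: the difference at 24 hpa exceeded that at 0 hpa by 2.88 on the log2 scale (SE 0.57, edgeR adjusted p = 0.00721) and that at 48 hpa exceeded it by 2.55 (SE 0.34, edgeR adjusted p = 0.00133). The second call was lost when all 12 groups entered 1 fit, with an estimate of 2.57. Of the other chromodomain members at 0 hpa, the 7 others lay between -0.09 and 0.22 on the log2 scale and were not called.

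Among the histones the H2B match dd_4808 moved most. Histone genes need care here, because near-identical copies can share reads and the libraries were made from poly(A) RNA, which misses histone messages without a tail. Its level at 48 hpa was 4.83, 6.78 and 5.94 RPM in *activin-2* RNAi libraries, against 3.001, 2.59 and 2.99 RPM in controls. Every *activin-2* RNAi library was above every control (log2 fold change 0.93, SE 0.21, edgeR adjusted p = 0.0398), yet the call was lost with DESeq2, with the replicate block and on leaving out any 1 library other than replicate 1 of *activin-2* RNAi, the estimates staying between 0.79 and 1.05. At 18 hpa posterior-facing wounds it read 12.7, 11.5, 12.2 and 10.9 RPM in libraries labelled *activin-2* RNAi, against 9.47, 8.97, 9.40 and 7.93 RPM in controls (log2 fold change 0.34, SE 0.099, edgeR adjusted p = 0.0437). That call was lost in 12 of 13 alternatives, among them each of the 8 libraries left out, with estimates between 0.28 and 0.37. Values at 24 hpa were 4.46, 2.59 and 4.003 RPM in *activin-2* RNAi libraries and 2.01, 2.11 and 2.28 RPM in controls, also without overlap, and were not called (log2 fold change 0.61, SE 0.24, edgeR adjusted p = 0.112).

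Variant H2A.Z replaces canonical H2A at promoters, and its match H2AFZ (dd_2614), one of 3 members annotated to a neoblast cluster in the table, was higher at 18 hpa posterior-facing wounds. It read 37.3, 32.5, 35.4 and 31.4 RPM in libraries labelled *activin-2* RNAi, against 29.3, 26.5, 26.2 and 25.7 RPM in controls, without overlap (log2 fold change 0.29, SE 0.067, edgeR adjusted p = 0.012). At 48 hpa it read 30.2, 32.1 and 26.5 RPM in *activin-2* RNAi libraries, against 23.4, 19.1 and 18.3 RPM in controls, and missed the threshold (log2 fold change 0.51, SE 0.12, edgeR adjusted p = 0.0549). The H2A match dd_5156 went the other way at 18 hpa posterior-facing wounds, with 14.3, 13.3, 13.04 and 15.0004 RPM in libraries labelled *activin-2* RNAi and 17.7, 15.8, 20.3 and 17.8 RPM in controls. The groups did not overlap (log2 fold change -0.42, SE 0.089, edgeR adjusted p = 0.00722). In the 5 other comparisons its log2 fold change was between -0.33 and -0.0048 and was not called. The H2A match with the most reads among the histones, dd_469, was called in none of the 6 and read 492, 461 and 468 RPM in *activin-2* RNAi libraries at 48 hpa, against 382, 350.0 and 320.1 RPM in controls.

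Demethylases take methyl groups off histone lysines, and 16 of the 17 members of this role were called in no *activin-2* RNAi comparison. The exception was the KDM8 match dd_14490 at 24 hpa. It read 10.9, 6.08 and 5.37 RPM in *activin-2* RNAi libraries, against 20.04, 23.3 and 24.7 RPM in controls, and no *activin-2* RNAi library reached the lowest control (log2 fold change -1.72, SE 0.21, edgeR adjusted p = 0.000237). At 0 hpa the values overlapped, with 6.61, 9.80 and 13.7 RPM in *activin-2* RNAi libraries and 6.88, 6.85 and 8.95 RPM in controls, and at 48 hpa they overlapped again, with 7.93, 15.5 and 7.92 RPM in *activin-2* RNAi libraries and 7.85, 12.8 and 9.84 RPM in controls. The RNAi difference at 24 hpa was below that at 0 hpa by a tested amount (log2 difference -2.16, SE 0.34, edgeR adjusted p = 0.000994). Of the other KDM8 matches, dd_5363 read 13.6, 13.8 and 13.1 RPM in *activin-2* RNAi libraries at 24 hpa, against 11.2, 13.2 and 12.4 RPM in controls, and dd_11273 read 7.63, 9.46 and 7.92 RPM in *activin-2* RNAi libraries and 7.21, 7.35 and 8.88 RPM in controls; neither was called. The KDM3B match dd_2582, the demethylase with the most reads, read 270.0, 306 and 295 RPM in *activin-2* RNAi libraries at 24 hpa, against 304, 302 and 278 RPM in controls, and was not called (log2 fold change -0.17, SE 0.081, edgeR adjusted p = 0.201).

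Among the 4 polycomb members 2 were higher at 24 hpa. SUZ12 is a core subunit of the complex that methylates histone H3, and PCGF2 belongs to the complex that marks H2A. The SUZ12 match dd_12930 read 21.4, 22.9 and 20.4 RPM in *activin-2* RNAi libraries, against 12.1, 14.1 and 13.03 RPM in controls (log2 fold change 0.57, SE 0.11, edgeR adjusted p = 0.0044). The PCGF2 match dd_12753 read 5.15, 5.88 and 6.05 RPM in *activin-2* RNAi libraries, against 2.65, 3.31 and 3.38 RPM in controls (log2 fold change 0.69, SE 0.17, edgeR adjusted p = 0.0227). In both genes every *activin-2* RNAi library was above every control. A second SUZ12 match, dd_9993, which carries the same planarian name, was not called at 24 hpa (log2 fold change 0.09) and was higher at 18 hpa posterior-facing wounds, with 41.9, 39.5, 37.03 and 42.3 RPM in libraries labelled *activin-2* RNAi and 34.5, 29.3, 34.5 and 34.4 RPM in controls (log2 fold change 0.22, SE 0.063, edgeR adjusted p = 0.0392). The 5 chromobox members, proteins of the family that reads methylated histone H3, were called in no *activin-2* RNAi comparison; the CBX1 match dd_928, with the most reads, read 225, 199 and 209.9 RPM in *activin-2* RNAi libraries at 24 hpa, against 194, 191 and 192 RPM in controls.

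Bromodomains bind acetylated lysines. The BRD3 match dd_7290 was higher at 24 hpa, with 12.8, 14.7 and 13.5 RPM in *activin-2* RNAi libraries and 6.78, 7.44 and 10.2 RPM in controls, without overlap (log2 fold change 0.59, SE 0.14, edgeR adjusted p = 0.0206). Its call, like that of PCGF2, was lost on leaving out replicate 2 or 3 of *activin-2* RNAi or replicate 1 or 2 of the controls, with estimates of 0.49 to 0.74 for BRD3 and 0.60 to 0.75 for PCGF2 over all alternatives. The call of BRD3 was also lost in the fit of all 12 groups (0.57) and that of PCGF2 with DESeq2 (0.71). Pharynx contigs summed to 158, 107 and 18.0 RPM in the *activin-2* RNAi libraries at 24 hpa, against 11.1, 75.5 and 53.0 RPM in the controls, and their part in these differences was not tested. The BRDT match dd_5367 (log2 fold change 0.24, edgeR adjusted p = 0.0418) and the chaperone match HIRA (dd_11365), which deposits histone H3.3 outside replication (0.31, edgeR adjusted p = 0.049), were also higher at 24 hpa. At 18 hpa posterior-facing wounds the BAZ2B match dd_7394 read 157, 144, 151 and 143 RPM in libraries labelled *activin-2* RNAi, against 132, 116, 121 and 130.3 RPM in controls (log2 fold change 0.21, SE 0.049, edgeR adjusted p = 0.0144).

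A pair of remodelling helicases was called at both 18 hpa posterior-facing wounds and 24 hpa. The CHD9 match dd_7985 read 129, 124, 125 and 121 RPM at 18 hpa in libraries labelled *activin-2* RNAi, against 110.5, 88.3, 104 and 107 RPM in controls (log2 fold change 0.24, SE 0.056, edgeR adjusted p = 0.0132). At 24 hpa it read 79.9, 95.6 and 89.1 RPM in *activin-2* RNAi libraries, against 66.4, 61.7 and 67.3 RPM in controls (log2 fold change 0.29, SE 0.079, edgeR adjusted p = 0.0321). The SMARCAD1 match dd_9378, related to the SWI/SNF helicases, was higher by 0.21 at 18 hpa (edgeR adjusted p = 0.0484) and by 0.31 at 24 hpa (edgeR adjusted p = 0.0329) on the log2 scale. The 13 other SWI/SNF-related members, the 7 deacetylases, the acetyltransferase HAT1 and the 11 methyltransferases had no call in any *activin-2* RNAi comparison. The SWI/SNF subunit match SMARCC2 (dd_1804), the HDAC2 match dd_695 and the KMT2C match dd_5165, each with the most reads of its role, had log2 fold changes of 0.09, -0.01 and 0.10 at 24 hpa. Pharynx contigs, at 54.2 to 177 RPM in the posterior-facing libraries labelled *activin-2* RNAi and 0.696 to 1.82 RPM in controls, moved with the 18 hpa comparison, with all 4 called higher; their part in the member calls was not tested. The count of 8 calls at 18 hpa posterior-facing wounds was 4 without replicate 1, 2 or 3 of the libraries labelled *activin-2* RNAi or replicate 2 of the controls, 3 without control replicate 3 and 5 without control replicate 4. In the fit of all 12 groups it was 2, the histone matches dd_2614 and dd_5156, so that neither helicase was called at 18 hpa there, with a log2 fold change of 0.23 for CHD9. At 24 hpa the count of 8 was 2 without replicate 2 and 3 without replicate 3 of *activin-2* RNAi, and 2 without control replicate 1 or 2.

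**Figure D3:**
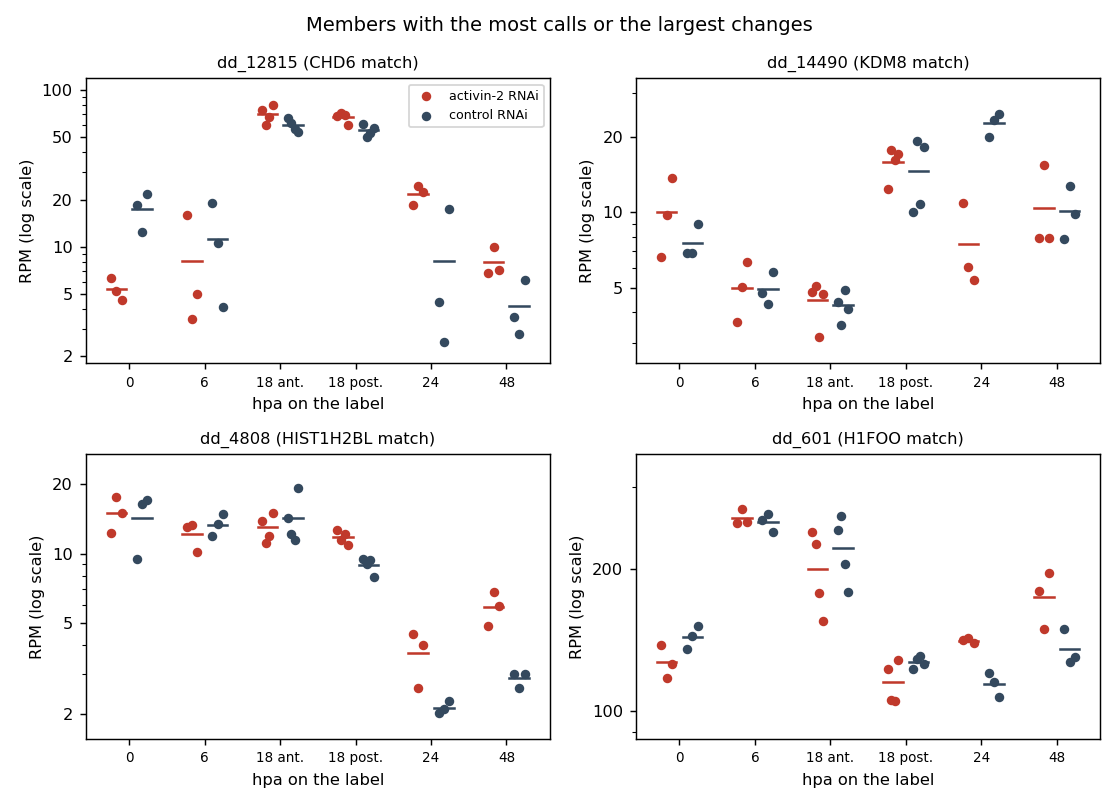
Level (RPM, log axis) of dd_12815, dd_14490, dd_4808 and dd_601 in every library, by labelled time and wound, with *activin-2* RNAi left of control RNAi; points are libraries and bars are group means. For dd_12815 the *activin-2* RNAi libraries at 0 hpa read 4.59 to 6.34 RPM, below the controls at 12.4 to 21.6 RPM, and all 16 libraries at 18 hpa read 50.4 to 79.7 RPM.

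At 48 hpa most members had a small positive difference, and 1 passed the test. Of the 101 members tested 86 had a positive log2 fold change (85.1%), against 53.3% of all contigs, with a median of 0.19 against 0.02. An unadjusted p under 0.05 was reached by 32 members, all higher in *activin-2* RNAi, and DESeq2 called 3 higher and none lower. The share of all contigs is not given for either count, so they do not set the members apart from other contigs. The role medians were 0.35 for the histones, 0.29 for the 3 chaperones and binding proteins, 0.22 for the methyltransferases and deacetylases, 0.19 for SWI/SNF-related members, 0.16 for bromodomain members and 0.12 for demethylases. Medians of the remaining roles, among them the chromodomain and the chromobox and polycomb members, are not listed. Replicate 2 of *activin-2* RNAi was the library with 122 RPM of pharynx contigs, and their part in the counts below was not tested. Leaving out replicate 2 kept replicates 1 and 3. Of 101 members 24 were then higher and none lower, against backgrounds of 4.05% higher and 4.73% lower. None of the 24 was the member called with all libraries. The 24 were 5 of 17 histones, 5 of 11 methyltransferases, 4 of 17 demethylases, 4 of 14 SWI/SNF-related members, 2 of 8 chromodomain and 2 of 12 bromodomain members, 1 of 3 chaperones and 1 of 7 deacetylases. Of the 9 chromobox and polycomb members 0 were higher, nor were the acetyltransferase or the 2 other members. Leaving out replicate 1 of *activin-2* RNAi gave 1 call. Leaving out replicate 3 of *activin-2* RNAi, the shallowest library, or any 1 control gave 0 calls. The KMT2A match dd_6283, of the family that methylates histone H3 at active genes, read 176, 145 and 159 RPM in *activin-2* RNAi libraries, against 119.8, 103 and 109.7 RPM in controls (log2 fold change 0.49, SE 0.11, edgeR adjusted p = 0.0501). The H3.3 match dd_532 read 358, 299.9 and 320.1 RPM in *activin-2* RNAi libraries, against 271, 244 and 234 RPM in controls, and the H4 match dd_506 read 72.7, 63.6 and 71.7 RPM in *activin-2* RNAi libraries, against 58.5, 50.1 and 48.4 RPM in controls.

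Genes of DNA replication and of neoblasts stood beside this. A list of 8 replication contigs, such as PCNA and the MCM helicase subunits, summed to 598 to 689 RPM in *activin-2* RNAi libraries at 48 hpa, against 485 to 519 RPM in controls, and 3 of 7 tested were higher. The neoblast gene *smedwi-1* read 648 to 877 RPM in *activin-2* RNAi libraries, against 581 to 610 RPM in controls, and was not called; of 348 neoblast-annotated contigs tested 5 were higher and 6 lower. At 0 hpa the replication contigs summed to 671 to 724 RPM in *activin-2* RNAi libraries, against 564 to 639 RPM in controls. At 24 hpa they summed to 466 to 524 RPM in *activin-2* RNAi libraries, against 448 to 457 RPM in controls. Their groups overlapped at 6 hpa. The part of these lists in the histone levels was not tested.

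Anterior-facing and posterior-facing wounds at 18 hpa were compared within each RNAi. In the libraries labelled *activin-2* RNAi 11 of 100 members were higher at anterior-facing wounds and 4 lower, against backgrounds of 8.88% and 9.51%. In the controls 5 of 100 were higher and 4 lower, against 7.24% and 8.19%. Both shares were near or below those of all contigs. The 2 comparisons share no library. They had 5 called members in common, 33.3% of the 15 and 55.6% of the 9, all with the same sign, which is below the overlap over all contigs, 57.2% of those called in libraries labelled *activin-2* RNAi and 68.4% of those called in controls. Across genes the members' log2 fold changes had a Pearson correlation of 0.86 across 100 members, against 0.88 over all contigs, as a description without a test, since genes are not independent replicates. In the difference between the RNAi effects at the 2 wounds edgeR called 0 of 101 members, against 0.0941% of all contigs; 1 member had an unadjusted p under 0.05 and DESeq2 called 0.

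The KDM8 match dd_14490 had the largest orientation difference of the 100 members tested, under both RNAi. At anterior-facing wounds of libraries labelled *activin-2* RNAi it read 4.83, 5.09, 3.19 and 4.74 RPM, against 12.4, 17.7, 16.1 and 17.1 RPM at posterior-facing wounds (log2 fold change -1.79, SE 0.15, edgeR adjusted p = 1.7e-06). In controls it read 4.41, 3.57, 4.92 and 4.12 RPM at anterior-facing wounds, against 10.1, 19.2, 10.8 and 18.2 RPM at posterior-facing wounds (log2 fold change -1.79, SE 0.23, edgeR adjusted p = 0.000124). No anterior library reached the lowest posterior one under either RNAi. A second KDM8 match, dd_11273, was lower at anterior-facing wounds as well, with 9.19, 6.51, 9.03 and 9.02 RPM against 11.4, 13.9, 12.04 and 11.6 RPM in libraries labelled *activin-2* RNAi (log2 fold change -0.54, SE 0.12, edgeR adjusted p = 0.00614) and 7.85, 7.03, 7.13 and 8.49 RPM at anterior-facing against 12.1, 10.3, 10.96 and 12.8 RPM at posterior-facing wounds in controls (log2 fold change -0.64, SE 0.11, edgeR adjusted p = 0.00165). The linker histone match H1FOO (dd_601) was higher at anterior-facing wounds, with 239.6, 226, 178 and 155 RPM against 123, 106, 105 and 128 RPM at posterior-facing wounds of libraries labelled *activin-2* RNAi (log2 fold change 0.78, SE 0.12, edgeR adjusted p = 0.000389). Its control values were 243, 259.7, 205 and 179 RPM at anterior-facing and 123, 129, 131 and 126 RPM at posterior-facing wounds (log2 fold change 0.74, SE 0.098, edgeR adjusted p = 0.000146).

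Matches to CBX3 and KDM5D were also called under both RNAi with the same sign. The CBX3 match dd_4855, a heterochromatin protein 1 relative, was lower at anterior-facing wounds, with a log2 fold change of -0.49 in libraries labelled *activin-2* RNAi (edgeR adjusted p = 0.00046) and -0.43 in controls (edgeR adjusted p = 0.00518). The KDM5D match dd_3334 was higher there, by 0.21 in libraries labelled *activin-2* RNAi and 0.24 in controls (edgeR adjusted p = 0.0188 and 0.00667). Calls made under 1 RNAi alone are not shown to differ between them. In the libraries labelled *activin-2* RNAi alone, 5 of 12 bromodomain members were higher, where 8.88% of all contigs were higher. The BPTF match dd_8604 led them, with 79.1, 78.5, 73.9 and 72.3 RPM at anterior-facing and 63.1, 59.2, 54.6 and 60.002 RPM at posterior-facing wounds (log2 fold change 0.34, SE 0.062, edgeR adjusted p = 0.00153). The difference between the RNAi effects was called for no member. BRD3 (dd_7290) was lower in these libraries (log2 fold change -0.57, SE 0.14, edgeR adjusted p = 0.00909), a call that was lost in the fit of all 12 groups at the same estimate of -0.57. In the controls alone dd_4808 was higher at anterior-facing wounds, with 14.3, 12.1, 11.4 and 19.4 RPM against 9.47, 8.97, 9.40 and 7.93 RPM (log2 fold change 0.59, SE 0.15, edgeR adjusted p = 0.0184); this call was lost without replicate 4 of the posterior-facing controls, where the estimate was 0.54 and the count of 9 calls was 5. Without replicate 1 of the posterior-facing libraries labelled *activin-2* RNAi their count of 15 was 9. Pharynx contigs summed to 3.89 to 14.2 RPM at anterior-facing wounds of libraries labelled *activin-2* RNAi, against 54.2 to 177 RPM at posterior-facing ones, and all 4 were lower; in controls they summed to 1.10 to 1.83 and 0.696 to 1.82 RPM. Their part in the orientation calls was not tested.

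**Figure D4:**
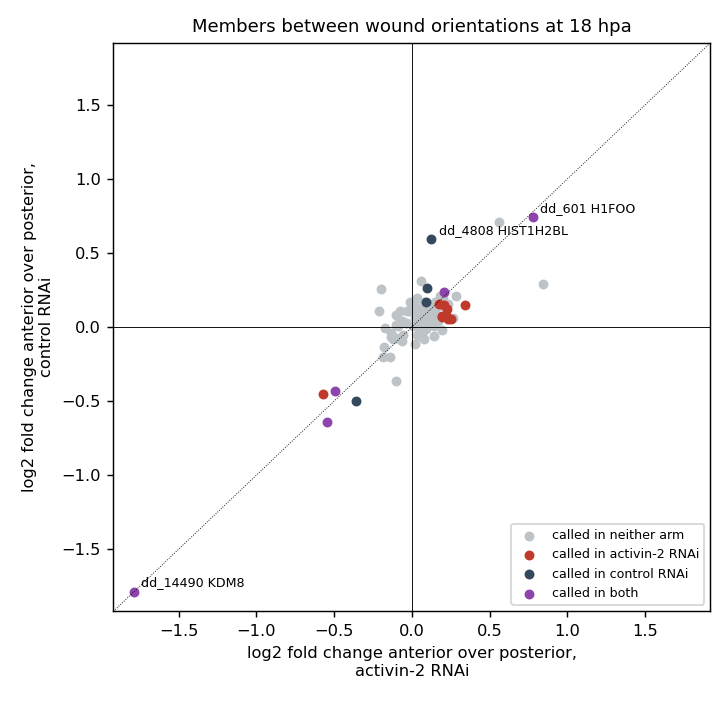
Log2 fold change of each member at anterior-facing over posterior-facing wounds at 18 hpa, in libraries labelled *activin-2* RNAi (x axis) and in control RNAi (y axis); each point is 1 of 100 members and colours mark in which comparison it was called. The KDM8 match dd_14490 lay at -1.79 and -1.79, and 75% of the 100 members had the same sign in both, against 77.8% of all contigs.

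Times were compared with 0 hpa within each RNAi, as labelled. The study's own list of wound-induced genes, 127 contigs of the table, bears on those labels. Its median log2 fold change was -0.23 in *activin-2* RNAi and -0.20 in controls at 6 hpa, and 11 contigs were lower in each. Higher at 6 hpa were 1 in *activin-2* RNAi and 0 in controls. At 24 hpa the median was -0.55 in *activin-2* RNAi, with 74 of 124 contigs lower and 8 higher. In controls it was -0.62, with 77 of 125 lower and 5 higher. At 48 hpa the median was 0.14 in *activin-2* RNAi, with 18 of 125 higher and 7 lower. In controls it was 0.12, with 41 of 122 higher and 15 lower. A list named for genes that rise after a cut was thus lower in the libraries labelled 6 and 24 hpa than in those labelled 0 hpa, and the order of the times is not settled by these values. The 18 hpa libraries were not tested against those of other times, since time and whatever set their *activin-2* reads apart cannot be told apart. They do enter the ranges of group means given above.

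At 6 hpa the linker histone match dd_601 was the single member called under either RNAi, against 1.13% of all contigs in *activin-2* RNAi and 0.821% in controls. It read 250.4, 268 and 252 RPM at 6 hpa, against 138, 117 and 126 RPM at 0 hpa, in *activin-2* RNAi (log2 fold change 1.02, SE 0.082, edgeR adjusted p = 0.00155). In controls it read 255, 262 and 239.9 RPM at 6 hpa, against 135, 144 and 152 RPM at 0 hpa (log2 fold change 0.80, SE 0.072, edgeR adjusted p = 0.000549). Linker histone H1 compacts the fibre between nucleosomes. In controls 28 members higher and 2 lower had an unadjusted p under 0.05, and DESeq2 called 10 higher. No share of all contigs is given for these counts. Without replicate 3 of *activin-2* RNAi at 6 hpa, a library with 28.7 RPM of pharynx contigs against 3.30 and 7.52 RPM in the other two, 7 members were called over time in *activin-2* RNAi, 3 higher and 4 lower, and 5 were called higher against the controls at 6 hpa; these 5 were the HDAC2 match dd_695, the KDM1A match dd_5683, the CBX1 match dd_928, the H2A match dd_469 and the H3.3 match dd_532, by 0.25 to 0.32 on the log2 scale. The share of all contigs called without that library is not given, so these counts cannot be set against a background. The part of the pharynx contigs in these counts was not tested.

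Of the 3 labelled times set against 0 hpa, the label 24 hpa had the most members called. In *activin-2* RNAi 7 of 102 members were higher and 10 lower, against backgrounds of 6.01% and 6.82%, and in controls 11 were higher and 12 lower, against 11.6% and 11.9%. The 2 comparisons share no library and had 6 called members in common, 35.3% of the 17 and 26.1% of the 23, all with the same sign; over all contigs the overlap was 53.2% of those called in *activin-2* RNAi and 29.1% of those called in controls. The H2B match dd_4808 had the most negative log2 fold change under both. It read 4.46, 2.59 and 4.003 RPM at 24 hpa, against 12.3, 17.6 and 15.01 RPM at 0 hpa, in *activin-2* RNAi (log2 fold change -1.96, SE 0.19, edgeR adjusted p = 7.1e-05), and 2.01, 2.11 and 2.28 RPM against 9.49, 16.5 and 17.05 RPM in controls (log2 fold change -2.45, SE 0.24, edgeR adjusted p = 1.6e-05). This contig is the single member on the wound-induced list described above. At 48 hpa it was lower too, with log2 fold changes of -1.29 in *activin-2* RNAi (edgeR adjusted p = 0.00844) and -2.09 in controls (edgeR adjusted p = 8.7e-05). H2AFZ (dd_2614) and SUZ12 (dd_9993) were the other members lower under both, with log2 fold changes of -0.52 and -0.35 in *activin-2* RNAi and -0.40 and -0.30 in controls. Members higher under both were the methyltransferase matches DOT1L (dd_4515) and KMT2D (dd_8482) and the helicase match CHD2 (dd_2597), by 0.26 to 0.39 in *activin-2* RNAi and 0.24 to 0.31 in controls.

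**Figure D5:**
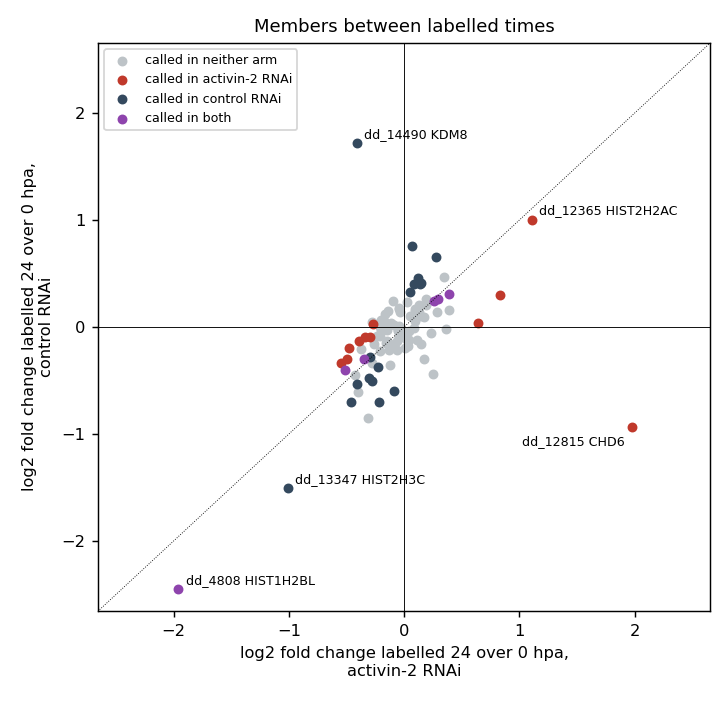
Log2 fold change of each member in libraries labelled 24 over 0 hpa, in *activin-2* RNAi (x axis) and in control RNAi (y axis); each point is 1 of 102 members and colours mark in which comparison it was called. The H2B match dd_4808 lay at -1.96 and -2.45, while dd_12815 and dd_14490 lay far from the diagonal.

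Both members with a tested difference between the RNAi effects at 24 and 0 hpa appear in these comparisons of labelled times. dd_12815 was higher at 24 than at 0 hpa in *activin-2* RNAi (log2 fold change 1.97, SE 0.15, edgeR adjusted p = 1.1e-05) and not called in controls (log2 fold change -0.94, SE 0.44, edgeR adjusted p = 0.142). dd_14490 was higher at 24 than at 0 hpa in controls (log2 fold change 1.72, SE 0.13, edgeR adjusted p = 1.9e-06) and not called in *activin-2* RNAi (log2 fold change -0.41, SE 0.27, edgeR adjusted p = 0.349). Those 2 were the calls of the interaction, against 4.41% of all contigs. By role, in *activin-2* RNAi 5 of 18 histones were lower and 1 higher at 24 hpa, 3 of 17 demethylases lower, and 3 of 11 methyltransferases higher, where 6.01% of all contigs were higher and 6.82% lower. Besides dd_4808 and dd_2614, the lower histones were H2AFJ (dd_2787), H3F3B (dd_532) and H4 (dd_506), with log2 fold changes of -0.50, -0.40 and -0.34. The higher one, dd_12365, had the fewest reads of all members. It read 1.54, 1.89 and 2.04 RPM at 24 hpa, against 0.996, 0.660 and 0.574 RPM at 0 hpa (log2 fold change 1.11, SE 0.28, edgeR adjusted p = 0.0229). The KDM4A match dd_10489 had the most negative difference among the demethylases (log2 fold change -0.54, SE 0.14, edgeR adjusted p = 0.0245). The calls of dd_12365 and dd_10489 were lost without replicate 3 of *activin-2* RNAi at 0 hpa or replicate 2 at 24 hpa, among others, and that of dd_12365 with DESeq2.

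In controls 4 of 11 methyltransferases were higher at 24 hpa and none lower, where 11.6% of all contigs were higher and 11.9% lower. They were led by the EHMT1 match dd_13514, with 3.92, 3.12 and 3.89 RPM at 24 hpa and 2.17, 2.04 and 2.70 RPM at 0 hpa (log2 fold change 0.76, SE 0.22, edgeR adjusted p = 0.0232). Of the 18 histones 3 were lower; the H3 match dd_13347 read 0.424, 0.276 and 0.592 RPM at 24 hpa, against 2.32, 1.30 and 1.43 RPM at 0 hpa (log2 fold change -1.51, SE 0.35, edgeR adjusted p = 0.00901). The chromobox and polycomb group split, with the matches CBX6 (dd_12731) higher by 0.66 on the log2 scale and PCGF2 and both SUZ12 matches lower, at -0.70, -0.60 and -0.30. HAT1 (dd_10558), which acetylates newly made histone H4, and the histone-binding NASP (dd_5663) were lower (-0.53 and -0.28), and HDAC2 (dd_695), a deacetylase found in repressive complexes, was higher (0.33). The control count of 23 was 12 without replicate 1 and 11 without replicate 3 of 0 hpa, and 11 without replicate 1 and 7 without replicate 2 of 24 hpa; the *activin-2* RNAi count of 17 was 10 without replicate 3 of 0 hpa or replicate 2 of 24 hpa and 8 without replicate 3 of 24 hpa. The call of dd_13514 was lost with DESeq2 and without control replicate 1 of either time, and that of dd_13347 without replicate 1 of 0 hpa or 2 of 24 hpa. Of 8 replication contigs 5 were lower at 24 hpa in *activin-2* RNAi and 4 in controls, and of the neoblast-annotated contigs 59 of 368 were lower and 12 higher in *activin-2* RNAi, 55 of 362 lower and 28 higher in controls. Of 4 pharynx contigs 3 were higher in *activin-2* RNAi and 2 in controls, and 0 lower. They summed to 0.448, 0.556 and 41.9 RPM in controls at 0 hpa. Of the gut-annotated contigs 122 of 992 were higher and 77 lower in *activin-2* RNAi, and 224 of 995 higher and 94 lower in controls. The part of these lists was not tested.

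At 48 hpa against 0 hpa 1 of 102 members, dd_4808, was called in *activin-2* RNAi by the main test, which ignores replicate numbers, against 1.07% of all contigs. In controls 8 were lower and none higher, against 5.39% lower and 5.58% higher. In *activin-2* RNAi, where same-numbered replicates of both times deviated together, the fit with a replicate block called 3: dd_4808 with a log2 fold change of -1.30, and the linker histone dd_601 and the KMT2C match dd_5165 at 0.49 and 0.36. Leaving out replicate 2 at 48 hpa instead gave 11 calls, 5 higher and 6 lower. Of the 8 lower in controls, dd_12815 read 3.54, 2.77 and 6.17 RPM at 48 hpa, against 18.4, 12.4 and 21.6 RPM at 0 hpa (log2 fold change -1.95, SE 0.22, edgeR adjusted p = 0.000179). dd_4808 and dd_13347 followed, and HAT1, H2AFZ, HINFP, KMT2A (dd_6283) and SUZ12 (dd_9993) had log2 fold changes between -0.56 and -0.35. The control count of 8 was 4 without replicate 1 and 5 without replicate 3 of 0 hpa, and 2 without replicate 2 or 3 of 48 hpa. The difference between the RNAi effects at 48 and 0 hpa was called for dd_12815 alone, given above, against 0.722% of all contigs, and for 6 members without replicate 2 of *activin-2* RNAi at 48 hpa. For the replicate block and the fits with a library left out in this paragraph, the share of all contigs called is not given.

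Chromatin genes that the naming rule missed were read from a second list of human symbols, 111 contigs of acetyltransferases, high-mobility-group proteins, polycomb and remodelling subunits. In *activin-2* RNAi over controls 1 was higher at 0 hpa, 1 at 6 hpa, none at 18 hpa anterior-facing wounds, 4 at 18 hpa posterior-facing wounds, 7 at 24 hpa and 1 at 48 hpa, of 100 tested each time, and none was lower. Of all contigs 3.15% were higher and 5.78% lower at 18 hpa posterior-facing wounds, and 4.51% higher and 7.96% lower at 24 hpa. The shares called in either direction were 4.22% at 0 hpa, 2% at 6 hpa, 2.6% at 18 hpa anterior-facing wounds and 2.33% at 48 hpa. The counts called at those points were below these shares. The count of 4 at 18 hpa posterior-facing wounds was near the share of 3.15%. At 24 hpa the count of 7 was above the share of 4.51%, a difference that was not tested. At 24 hpa the 7 were 3 contigs of the histone chaperone SET (dd_618, dd_393 and dd_326), the polycomb methyltransferase match EZH1 (dd_7754), the acetyltransferase match CREBBP (dd_9343), the H3 methylation subunit DPY30 (dd_2655) and the remodelling subunit ACTR5 (dd_13345), with log2 fold changes of 0.24 to 0.59. CREBBP was also higher at 18 hpa posterior-facing wounds (0.23) and DPY30 at 0 hpa (0.63). EZH1 is a catalytic partner of SUZ12. Comparisons of 1 RNAi with 0 hpa and those between RNAi share libraries, so that their values stand side by side and are not separate evidence.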

How the data were processed

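Polyadenylated RNA of 40 libraries was sequenced after preparation with a stranded kit. The authors aligned reads with bowtie to the dd_Smed_v6 transcriptome, counted them per contig with coverageBed and summed isotigs; the deposited table holds raw counts, with human and planarian matches and cluster annotations. Submitters' processing notes name CASAVA 1.9, cutadapt 1.8, Bowtie 1.2, SAMtools 1.6 and DESeq. The table's columns of the authors' own fold changes and adjusted p-values were not used. Contigs have no lengths here, so levels were not compared between genes, and no sequences were used. RPM is a count divided by the library total and multiplied by 1000000.

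Counts were tested in R 4.3.3 with edgeR 4.0.16 (TMM scaling, filterByExpr with a minimum count of 10 and total of 15, quasi-likelihood test, prior count 2) on the 2 groups compared, or 4 for interactions, with Benjamini-Hochberg adjustment over all contigs tested and calls under 0.05; DESeq2 1.42.0 was an alternative. The fits were tested on simulated data. Genes shown in full were, among called members of at least 1 RPM whose groups did not overlap, the 3 largest rises and falls in each *activin-2* RNAi comparison, the 2 largest in each other comparison of 2 groups and the largest of each sign in an interaction, with the member of most reads per role, dd_12815 and dd_4808; 27 members met this. Other members named were chosen after their values were seen. The members and lists were chosen with earlier results of these data known; the wound-induced list came from the study's supplement. Libraries of a group were never duplicates (lowest chi-square per degree of freedom 2.7). Same-numbered replicates were said to deviate together where every correlation of deviations from the group means exceeded 0.1, which held for 48 against 0 hpa in *activin-2* RNAi (0.356, 0.403 and 0.323). The main test had no replicate term in any comparison, that one included. The replicate block was an alternative.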

Additional observations from a re-analysis of the deposited data

Results flagged for a closer look

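Of the members named by rule, 7 had 1 library far from the rest of its group of 4 at 18 hpa. In controls at anterior-facing wounds the CHD9 match dd_7985 read 122.3 RPM in replicate 1, where the group read 122, 112, 113 and 114 RPM. In controls at posterior-facing wounds BRD3 (dd_7290) read 15.15 RPM in replicate 2, in a group of 21.01, 15.1, 20.9 and 21.2 RPM, and HDAC2 (dd_695) read 442.8 RPM in replicate 1, in a group of 443, 405, 399.5 and 403 RPM. In libraries labelled *activin-2* RNAi the KDM8 match dd_11273 read 6.511 RPM in anterior-facing replicate 2, the CHD4 match dd_2331 read 368.5 RPM in posterior-facing replicate 3, the H2A match dd_469 read 455.3 RPM in anterior-facing replicate 4 and NHP2L1 (dd_1928) read 24.58 RPM in anterior-facing replicate 3. The last 3 groups were 352, 349.8, 368 and 353 RPM for dd_2331, 486, 487, 487 and 455 RPM for dd_469 and 21.6, 21.8, 24.6 and 21.9 RPM for dd_1928. These are 7 of 108 groups screened over the 27 members the text names by rule, and chance alone marks about 1 in 20 groups. The causes were not tested.

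The RNAi difference changed between times for 2 members in a test of the change itself with edgeR. For dd_14490 the difference at 24 hpa minus that at 0 hpa was -2.164 on the log2 scale, and for dd_12815 it was 2.876. For dd_12815 the difference at 48 hpa minus that at 0 hpa was 2.551. Within groups dd_12815 varied, with 16.1, 3.45 and 5.01 RPM in *activin-2* RNAi libraries and 19.1, 10.5 and 4.12 RPM in controls at 6 hpa. The estimates over all alternatives ran between -2.55 and -1.90 for dd_14490, between 2.49 and 4.08 for dd_12815 at 24 hpa and between 2.35 and 2.89 for dd_12815 at 48 hpa.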

How the results depend on the processing

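Each comparison was repeated with DESeq2, with RLE scaling, without the low-count filter, in a fit of all 12 groups, with a replicate block and without each library in turn. Of the 34 calls of named members, none changed direction; 5 were lost with DESeq2, 5 in the fit of all groups, 1 without the filter, 2 with the replicate block, none with RLE scaling, and 33 of 246 when a library was left out. The counts of called members moved further, and the causes were not tested. Shares of all contigs called in these repeats are not given here. For *activin-2* RNAi over control the count of 1 at 0 hpa was 2 with RLE scaling, 2 without the filter and 10 in the fit of all groups, the count of 0 at 6 hpa was 5 with DESeq2 and 1 in the fit of all groups, and the count of 0 at 18 hpa anterior-facing wounds was 1 in that fit. At 18 hpa posterior-facing wounds the count of 8 was 4 with DESeq2, 2 in the fit of all groups and 5 with the replicate block, and at 24 hpa the count of 8 was 4 with DESeq2. At 48 hpa the count of 1 was 3 with DESeq2, 2 with RLE scaling, 18 in the fit of all groups, 5 without the filter and 2 with the replicate block. Anterior over posterior in libraries labelled *activin-2* RNAi, the count of 15 was 9 in the fit of all groups and 9 with the replicate block. Over time in *activin-2* RNAi, the count of 1 at 6 hpa was 2 with DESeq2 and 4 in the fit of all groups, and that of 1 at 48 hpa was 2 with DESeq2, 4 in the fit of all groups, 2 without the filter and 3 with the replicate block. Over time in controls, the count of 1 at 6 hpa was 10 with DESeq2, 6 in the fit of all groups and 2 without the filter, and that of 8 at 48 hpa was 5 with DESeq2. The single call of the interaction at 48 hpa was 0 in the fit of all groups. The replicate block moved no other count by more than 1.5 times. Same-numbered replicates deviated together in the 48 against 0 hpa comparison of *activin-2* RNAi alone; elsewhere they share only a number.

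Leaving out each library gave 1 to 2 calls at 0 hpa, 0 to 5 at 6 hpa, 3 to 7 at 18 hpa posterior-facing wounds, 2 to 8 at 24 hpa and 0 to 24 at 48 hpa for *activin-2* RNAi over control. It gave 9 to 16 and 5 to 11 for anterior over posterior in libraries labelled *activin-2* RNAi and in controls, 1 to 7, 8 to 15 and 1 to 11 for 6, 24 and 48 over 0 hpa in *activin-2* RNAi, and 7 to 26 and 2 to 11 for 24 and 48 over 0 hpa in controls. The interactions gave 2 to 3 calls at 24 hpa and 1 to 6 at 48 hpa. Depth limits the members with few reads: dd_12365, with 403 reads in all, was not tested in 6 comparisons, dd_8630 in 3 and dd_13347 in 2.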

Other observations

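The chromatin genes outside the naming rule also moved between labelled times. At 24 over 0 hpa 22 of 100 were lower and 4 higher in *activin-2* RNAi, and 14 lower and 4 higher in controls, against backgrounds of 6.82% lower and 6.01% higher and of 11.9% lower and 11.6% higher. The helicase match RUVBL1 (dd_3490), shared by several remodelling complexes, had log2 fold changes of -0.59 in *activin-2* RNAi and -0.67 in controls. The histone H3 methyltransferase match SUV39H1 (dd_8819) stood at -0.40 and -0.35, the high-mobility-group match HMGB1 (dd_1646) at -0.54 and -0.44, and the chaperone match SET (dd_618) at -0.45 and -0.55, all called by edgeR under both RNAi. Contigs of the replication-coupled chaperones CHAF1B (dd_5543) and SSRP1 (dd_3904), at -0.32 and -0.31, were called in *activin-2* RNAi alone, and the difference between the RNAi was not called for either. Higher at 24 hpa in *activin-2* RNAi were 2 contigs of the acetyltransferase EP300 (dd_7719 and dd_8613), at 0.54 and 0.42, and higher at 24 hpa in controls was the methyltransferase match SETDB1 (dd_3536), at 0.45.

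At 18 hpa 6 of 100 of these genes were higher and 3 lower at anterior-facing than at posterior-facing wounds in libraries labelled *activin-2* RNAi, and 0 were higher and 3 lower in controls. Backgrounds were 8.88% higher and 9.51% lower in libraries labelled *activin-2* RNAi, and 7.24% and 8.19% in controls. The match ING5 (dd_6715), a reader of methylated histone H3, stood at -0.60 in libraries labelled *activin-2* RNAi.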
